A study of Mus musculus with 2 samples.

Results

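The chemokines and their receptors were taken as the genes whose symbols begin with Ccl, Ccr, Cxcl or Cxcr followed by a number, together with Cx3cl1, Cx3cr1, Xcl1, Xcr1 and the atypical receptors Ackr1 to Ackr4. The rule used the symbol alone and no measured value. It found 62 of the 23228 genes named in the files, of which 39 were ligands, 19 were receptors and 4 were atypical receptors. Of these, 27 reached 1 FPKM in at least 1 library and were compared between the libraries, as were 13795 genes in all. FPKM scales fragment counts to transcript length and to library size, so that levels of different genes can be set side by side.

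Poly(A) RNA was sequenced from spermatogonial progenitor cells, the germ cells that sustain spermatogenesis, isolated from the testis of C57BL/6 mice 8 days old. There was 1 library from Dnmt3l knockout mice and 1 from wild-type mice of the same strain and age. Dnmt3l encodes a partner of the de novo DNA methyltransferases that has no catalytic activity of its own, and the series title names its part in the quiescence of these cells. The labels do not say which cells lack Dnmt3l, how many animals gave each library or by which markers the cells were isolated. With 1 library per genotype there is no replicate check on any difference, and no test between the genotypes was made. The bounds given with FPKM values are those deposited with each transcript, summed per gene, and cover the estimate within 1 library only.

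Chemokines are small secreted proteins that guide moving cells along gradients through receptors coupled to G proteins. They are grouped as CC, CXC, CX3C and C by the spacing of their first cysteines, and many ligands share receptors within a group. Atypical receptors bind chemokines without coupling to G proteins and remove or present them. In the testis, Cxcl12 from somatic cells and Cxcr4 on germ cells guide primordial germ cells to the gonad and help to hold stem cells in their niche, while macrophages of the testis carry Cx3cr1 and monocytes are drawn in through Ccr2.

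Dnmt3l itself was listed at 0 FPKM in the knockout library, against 1.67 FPKM (bounds 0.79 to 2.68) in the wild-type library. Read counts are not in the files and depth is unknown, but coverage per FPKM was 1.10 times as high in the knockout library as in the wild-type library. The median gene had a log2 ratio of 0.21, knockout over wild-type, so ratios are also given relative to it. Germ cell markers were abundant in both libraries, with Ddx4 at 123 FPKM in the knockout and 139 FPKM in the wild-type library and Dazl at 137 FPKM in the knockout and 223 FPKM in the wild-type library. Markers of Sertoli, stromal and immune cells were abundant too, and their values are given beside those of the chemokines.

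Because Dnmt3l acts with enzymes that methylate cytosine in CG pairs, the CG content of the promoters was read from the RefSeq promoter table of the build GRCm38.p6, which had an entry for 46 of the 62 genes. The windows are the 250 bases before the start of the gene, written 5′ to 3′ on the strand of the gene, with each CG in capitals. The 6 most abundant compared genes with an entry are shown to make visible how far CG content differs within the family. They lie at chr6:117168285-117168534 on the plus strand for Cxcl12, chr9:120068297-120068546 on the minus strand for Cx3cr1, chr1:164935523-164935772 on the minus strand for Xcl1, chr8:94771930-94772179 on the plus strand for Cx3cl1, chr1:128592300-128592549 on the minus strand for Cxcr4 and chr11:83649379-83649628 on the minus strand for Ccl3.
Cxcl12: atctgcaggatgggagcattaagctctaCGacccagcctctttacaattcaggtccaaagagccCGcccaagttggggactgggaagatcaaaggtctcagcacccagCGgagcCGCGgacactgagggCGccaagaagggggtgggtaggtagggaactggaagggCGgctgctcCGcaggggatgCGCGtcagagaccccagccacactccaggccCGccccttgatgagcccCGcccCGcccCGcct
Cx3cr1: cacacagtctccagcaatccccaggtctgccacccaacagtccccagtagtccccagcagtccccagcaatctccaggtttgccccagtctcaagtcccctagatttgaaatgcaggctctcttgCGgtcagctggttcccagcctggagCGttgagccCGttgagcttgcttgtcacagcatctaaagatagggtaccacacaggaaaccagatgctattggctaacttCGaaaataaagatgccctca
Xcl1: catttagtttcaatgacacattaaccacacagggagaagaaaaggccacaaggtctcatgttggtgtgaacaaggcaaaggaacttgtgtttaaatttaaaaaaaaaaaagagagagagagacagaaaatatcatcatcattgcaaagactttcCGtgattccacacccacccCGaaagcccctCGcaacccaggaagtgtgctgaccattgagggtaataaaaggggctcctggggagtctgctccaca
Cx3cl1: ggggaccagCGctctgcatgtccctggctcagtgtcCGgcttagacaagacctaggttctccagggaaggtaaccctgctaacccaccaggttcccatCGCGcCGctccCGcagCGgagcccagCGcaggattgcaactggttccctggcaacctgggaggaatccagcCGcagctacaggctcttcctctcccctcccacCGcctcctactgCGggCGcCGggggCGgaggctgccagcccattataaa
Cxcr4: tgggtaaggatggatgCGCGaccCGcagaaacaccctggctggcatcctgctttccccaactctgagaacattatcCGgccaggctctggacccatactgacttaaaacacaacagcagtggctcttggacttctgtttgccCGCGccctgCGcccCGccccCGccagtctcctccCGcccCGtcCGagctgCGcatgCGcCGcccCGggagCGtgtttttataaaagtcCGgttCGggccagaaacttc
Ccl3: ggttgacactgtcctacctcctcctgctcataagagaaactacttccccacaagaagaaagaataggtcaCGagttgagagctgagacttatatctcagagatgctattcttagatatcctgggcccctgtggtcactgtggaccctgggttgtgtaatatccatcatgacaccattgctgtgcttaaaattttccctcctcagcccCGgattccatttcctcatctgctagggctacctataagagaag

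The windows of Cxcr4, Cxcl12 and Cx3cl1 were rich in CG, with 19, 14 and 14 pairs, whereas those of Cx3cr1, Xcl1 and Ccl3 held 4, 3 and 2. The family as a whole was poor in CG. The median was 3 pairs per window in the 46 genes with an entry, against 6 in all 27025 windows of the table, and the median ratio of observed to expected CG was 0.24 in these genes, against 0.38 in all windows. Of the 6 genes shown, picked by level, Xcl1 and Ccl3 were at least 2-fold higher in the knockout library. These were also the shortest of the 6, at 502 and 790 nt. The 7 higher genes with an entry had a median of 3 pairs, against 3.5 in the 20 compared genes with an entry. Ccl19, with 9 pairs, was among the higher genes. A link between CG content and the difference was not tested. The files hold no methylation measurement, and whether promoter methylation differed was not tested.

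Across the 27 compared genes, 10 were at least 2-fold higher in the knockout library and 2 were at least 2-fold lower, on the scale of log2((knockout FPKM + 1)/(wild-type FPKM + 1)), here called the log2 ratio. Over all compared genes, 7.68% were at least 2-fold higher and 3.5% at least 2-fold lower. The median log2 ratio was 0.70 in the chemokine genes, against 0.22 in all compared genes, and 24 of the 27 lay above 0, against 66% of all genes. Of the 10 higher genes, 3 had no value above 0 in the wild-type library, namely Ccl27b, Ccl21a and Ccl21c, and both lower genes, Cxcr6 and Ackr1, had none in the knockout library. A listing of 0 was found in 1.33% of all compared genes for the knockout and 2.44% for the wild-type library. Among the 22 genes above 0 in both libraries, 7 were at least 2-fold higher, against 5.45% of all such genes, and none was at least 2-fold lower, against 2.26%. The deposited bounds did not overlap for 12 genes that were higher and 2 that were lower, against 35.5% and 16.1% of all compared genes.

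Of the 27 genes, 17 reached 1 FPKM in both libraries, 8 in the knockout library alone and 2 in the wild-type library alone. Those 10 entered the comparison only through the library in which they were high, so the choice itself pushed their ratios in that direction. Among the 17 genes at 1 FPKM or more in both libraries, 5 were at least 2-fold higher in the knockout library, against 4.74% of all such genes, and none was at least 2-fold lower, against 1.86%. The 5 were Ccl3, Ccl19, Cxcl16, Ccl12 and Xcl1, and the median log2 ratio of the 17 was 0.70.

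Ligands and receptors differed in how they were placed. All 19 compared ligands had a log2 ratio above 0, with a median of 1.00, and they held all 10 of the higher genes. Every compared ligand also lay above the median gene, as did 51.2% of all genes. Ccl2, Cxcl14 and Cxcl2 were barely above it, however, at 0.002, 0.01 and 0.03 relative to it. Ccl2 had a log2 ratio of -0.07 when the 50 most abundant genes were left out of the total used for scaling. With RefSeq transcripts alone, Ccl19, Cxcl1 and Cxcl2 were below 0. After adjustment for transcript length, described further on, Ccl2, Cxcl2 and Cxcl14 were below 0. The 8 compared receptors, atypical ones included, had a median log2 ratio of 0.26, with 5 above 0 and 4 above the median gene. Summed over the compared genes, ligands came to 167 FPKM in the knockout and 95.5 FPKM in the wild-type library, and receptors to 32.7 FPKM in the knockout and 25.7 FPKM in the wild-type library. The difference between ligands and receptors was not tested, and ligands were also shorter, as given further on. The filter bears on it too, since Ccl5, Ccl8, Ccl21a, Ccl21c, Ccl27b and Cxcl14 reached 1 FPKM in the knockout library alone. Among receptors, Cxcr2 and Cxcr3 did so in the knockout library alone, and Cxcr6 and Ackr1 in the wild-type library alone. Of the ligands under the filter, Ccl1, Ccl17 and Ccl28 were lower in the knockout library.

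**Figure D1:**
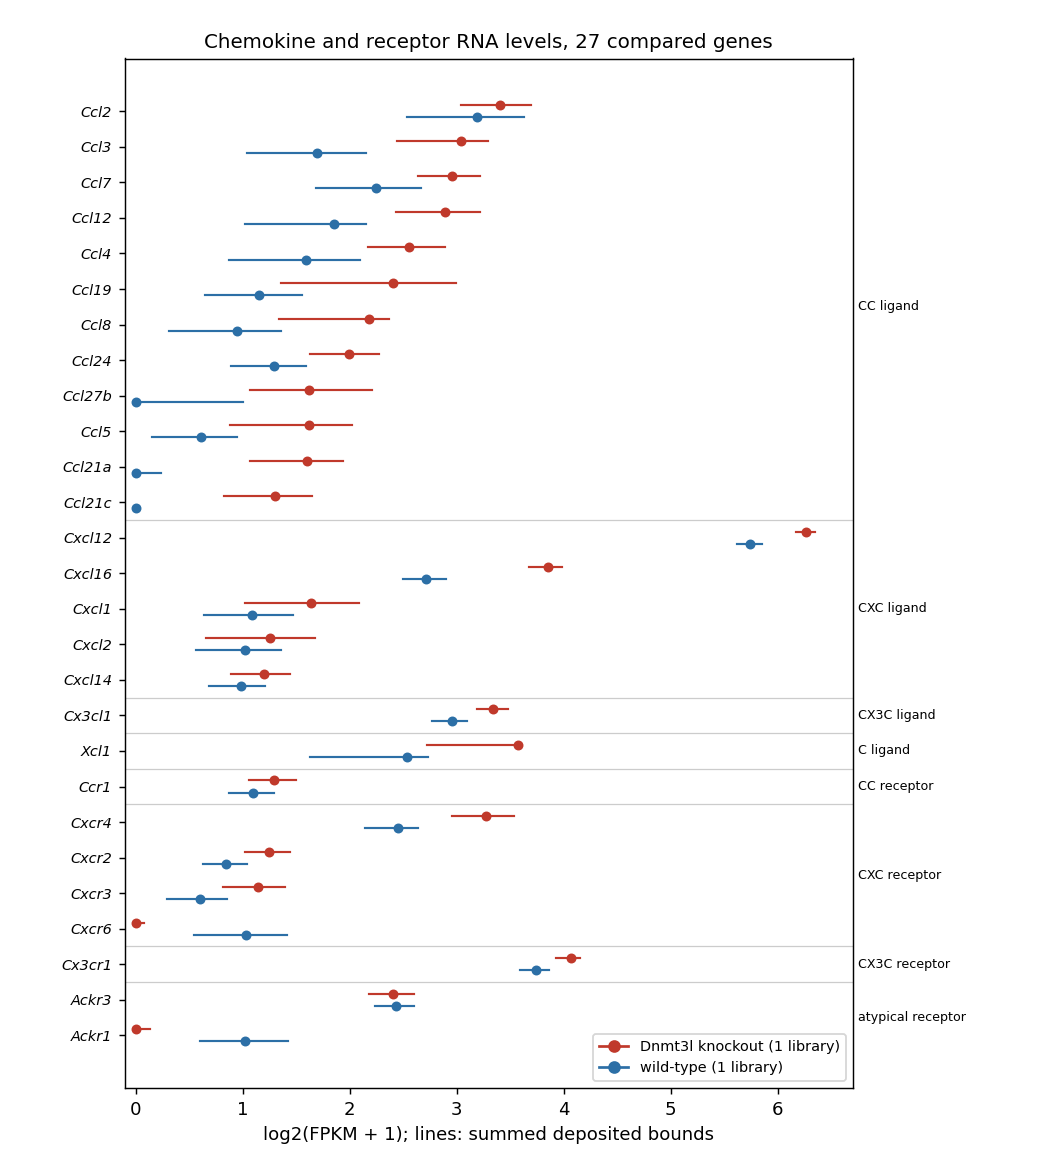
Levels of the 27 compared genes as log2(FPKM + 1), with 1 row per gene grouped by class, red for the Dnmt3l knockout library and blue for the wild-type library; points are FPKM and lines the summed deposited bounds. Cxcl12, at 75.7 FPKM in the knockout and 52.4 FPKM in the wild-type library, stands far above the rest, and for most CC ligands the knockout point lies to the right of the wild-type one.

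Cxcl12, the homing signal of germ and blood stem cells, was the most abundant of the family, at 75.7 FPKM (bounds 71.2 to 80.4) in the knockout and 52.4 FPKM (48.2 to 56.6) in the wild-type library. Its log2 ratio was 0.52, and its bounds did not overlap. It lay above 91.4% of compared genes in the knockout library and above 89.5% in the wild-type library. The gene lies at chr6:117168535-117181368 in mm10, and most of its RNA was assigned to the shortest RefSeq isoform, of 1878 nt, at 66.4 FPKM in the knockout and 44.3 FPKM in the wild-type library. The isoform of 3173 nt was at 9.32 FPKM in the knockout and 6.12 FPKM in the wild-type library. The longest isoform, of 5670 nt, went the other way, with no FPKM in the knockout and 1.92 FPKM (1.57 to 2.27) in the wild-type library.

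Cxcr4, the signalling receptor of Cxcl12, had 8.66 FPKM (6.78 to 10.6) in the knockout and 4.45 FPKM (3.43 to 5.23) in the wild-type library, a log2 ratio of 0.83. The gap rested on 1 assembled transcript model in the knockout library, with 2 exons like the RefSeq transcript and 3.43 FPKM. Without assembled models Cxcr4 stood at 5.23 FPKM in the knockout and 4.45 FPKM in the wild-type library, a log2 ratio of 0.19. Averaged over its exon bases the ratio was 0.79, since the model covers the same exons. Ackr3, the atypical receptor that scavenges Cxcl12, was nearly level at 4.30 FPKM in the knockout and 4.39 FPKM in the wild-type library. The ligand and both of its receptors were thus above 4 FPKM in each library, and none of them was 2-fold different.

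Cx3cr1, the fractalkine receptor of macrophages and monocytes, was the most abundant receptor, at 15.7 FPKM (14.2 to 16.8) in the knockout and 12.3 FPKM (11.02 to 13.6) in the wild-type library. Its ligand Cx3cl1, which is tethered to the membrane and shed by proteases, stood at 9.13 FPKM (8.11 to 10.2) in the knockout and 6.78 FPKM (5.80 to 7.55) in the wild-type library. Both had bounds that did not overlap, but their log2 ratios of 0.33 and 0.38 were small, and relative to the median gene they were 0.12 and 0.18.

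Cxcl16, another ligand that exists in a membrane-bound form, showed a clearer gap, with 13.4 FPKM (11.8 to 14.8) in the knockout and 5.57 FPKM (4.66 to 6.44) in the wild-type library. Its log2 ratio was 1.14, and 0.93 relative to the median gene. It was the only one of the 14 compared chemokine genes of 1000 nt or more that was at least 2-fold higher. Its exons share 363 bases with Zmynd15 on the opposite strand, which had 4.49 FPKM in the knockout and 2.46 FPKM in the wild-type library, and the protocol names no strand-marking step. Cxcr6, the receptor of Cxcl16 on T cells and natural killer cells, was listed at 0 FPKM (upper bound 0.059) in the knockout library, against 1.05 FPKM (0.46 to 1.67) in the wild-type library. Cxcr6 entered the comparison through the wild-type library alone, and 0.37 FPKM of its value there came from a single-exon model. With the RefSeq transcript alone its wild-type level was 0.67 FPKM (0.32 to 1.04), a log2 ratio of -0.74 with bounds apart. With a pseudocount of 1 FPKM, a level under 1 FPKM against 0 cannot reach a 2-fold difference.

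Xcl1, a C chemokine made by T cells and natural killer cells, had 10.9 FPKM in the knockout and 4.81 FPKM (2.09 to 5.65) in the wild-type library, a log2 ratio of 1.04. The deposited upper bound of the knockout value, 10.5 FPKM, was below the value itself, and its bounds, from 5.58 FPKM, overlapped those of the wild-type library. Its receptor Xcr1, a marker of cross-presenting dendritic cells, was near 0 in both libraries, at 0.098 FPKM in the knockout and 0.12 FPKM in the wild-type library.

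The monocyte attractants Ccl2, Ccl7, Ccl12 and Ccl8 lie side by side with Ccl11 and Ccl1 at chr11:82035577-82179812, and the first 3 act through Ccr2. Summed over the 6 genes, the cluster came to 27.3 FPKM in the knockout and 16.2 FPKM in the wild-type library. Ccl12 stood at 6.43 FPKM (4.39 to 8.31) in the knockout and 2.61 FPKM (1.03 to 3.45) in the wild-type library, a log2 ratio of 1.04 with bounds apart. Ccl8 had 3.54 FPKM (1.54 to 4.17) in the knockout and 0.94 FPKM (0.24 to 1.57) in the wild-type library, a log2 ratio of 1.23, with bounds that overlapped narrowly. Ccl7 was under 2-fold, at 6.77 FPKM in the knockout and 3.74 FPKM in the wild-type library, a log2 ratio of 0.71.

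Ccl2, the best known monocyte attractant, depended on which transcripts were counted. In total it had 9.56 FPKM (7.25 to 11.9) in the knockout and 8.15 FPKM (4.79 to 11.3) in the wild-type library, a log2 ratio of 0.21. Single-exon models over this spliced gene made up 2.93 FPKM of it in the knockout and 4.58 FPKM in the wild-type library. Its RefSeq transcript alone stood at 6.63 FPKM in the knockout and 3.57 FPKM in the wild-type library, a log2 ratio of 0.74. Ccl11, which recruits eosinophils, and Ccl1, the ligand of Ccr8, stayed under 1 FPKM in both libraries.

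A second cluster, at chr11:83525779-83664683, holds Ccl5, Ccl9, Ccl6, Ccl3 and Ccl4, and summed to 15.4 FPKM in the knockout and 5.17 FPKM in the wild-type library. Ccl3, an inflammatory product of macrophages that binds Ccr1, had 7.23 FPKM (4.43 to 8.81) in the knockout and 2.24 FPKM (1.06 to 3.45) in the wild-type library. Its log2 ratio of 1.35 was the highest among genes at 1 FPKM or more in both libraries. Ccl4, its neighbour and close relative, was just under 2-fold, at 4.89 FPKM (3.49 to 6.40) in the knockout and 2.02 FPKM (0.83 to 3.27) in the wild-type library, a log2 ratio of 0.96. Ccl5, a T cell product that also binds Ccr1, was just over it, at 2.07 FPKM (0.84 to 3.06) in the knockout and 0.53 FPKM (0.12 to 0.93) in the wild-type library, a log2 ratio of 1.00. Ccl6 stayed under 1 FPKM but had bounds apart, at 0.85 FPKM (0.47 to 1.21) in the knockout and 0.15 FPKM (0 to 0.26) in the wild-type library.

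The CC receptors of these ligands were low. Ccr1 had 1.46 FPKM in the knockout and 1.14 FPKM in the wild-type library, a log2 ratio of 0.20 that lay at the median gene. Ccr2 had 0.77 FPKM in the knockout and 0.60 FPKM in the wild-type library. Both were slightly higher in the knockout library, with bounds that overlapped.

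Ccl24, an eosinophil attractant made by macrophages that acts through Ccr3, had 2.98 FPKM (2.09 to 3.83) in the knockout and 1.45 FPKM (0.86 to 2.01) in the wild-type library, a log2 ratio of 0.70 with bounds apart. Cxcl14, an epithelial and stromal chemokine, differed little, at 1.29 FPKM in the knockout and 0.97 FPKM in the wild-type library.

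The neutrophil attractants Cxcl1 and Cxcl2, which share the receptor Cxcr2, were low, and their direction depended on assembled models. Cxcl1 had 2.11 FPKM in the knockout and 1.12 FPKM in the wild-type library, a log2 ratio of 0.55, and -0.41 with RefSeq transcripts alone. Cxcl2 had 1.39 FPKM in the knockout and 1.03 FPKM in the wild-type library, a log2 ratio of 0.24, and -0.24 with RefSeq transcripts alone. In both, a single-exon model found in the knockout library alone added the gap. Cxcr2 stood at 1.38 FPKM (1.03 to 1.71) in the knockout and 0.80 FPKM (0.55 to 1.05) in the wild-type library. Cxcl5, Cxcl3 and Cxcl15, of the same cluster at chr5:90759299-90905938, were listed at 0 in both libraries.

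Cxcr3, the receptor for the interferon-induced ligands Cxcl9, Cxcl10 and Cxcl11, had 1.22 FPKM (0.77 to 1.64) in the knockout and 0.52 FPKM (0.23 to 0.80) in the wild-type library. Its 3 ligands, which lie together at chr5:92321331-92363296, stayed under 1 FPKM each and summed to 1.40 FPKM in the knockout and 0.92 FPKM in the wild-type library.

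Ccl19 and Ccl21, the ligands of Ccr7 that bring dendritic cells and T cells into lymphoid tissue, were the least settled part of the family. Ccl19 had 4.31 FPKM (1.56 to 6.96) in the knockout and 1.23 FPKM (0.57 to 1.95) in the wild-type library, a log2 ratio of 1.26. Of the knockout value, 3.83 FPKM came from 2 assembled spliced models, and the RefSeq transcript alone had 0.48 FPKM in the knockout and 1.23 FPKM in the wild-type library, a log2 ratio of -0.59. Averaged over its exon bases, Ccl19 was at 1.59 FPKM in the knockout and 0.61 FPKM in the wild-type library. The direction for Ccl19 thus changed with the transcripts counted.

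Ccl21a had 2.03 FPKM (1.10 to 2.84) in the knockout library, and Ccl21c had 1.47 FPKM (0.78 to 2.13) there. Each was listed at 0 for wild-type. Both belong to a block of near-identical copies on chromosome 4 that also holds Ccl21b, Gm1987, Gm13304 and Gm10591. At chr4:42772860-42773991 the knockout library listed its reads under Ccl21a, while the wild-type library listed 1.26 FPKM under Gm1987, which spans the same exons. At chr4:42114787-42115917 the knockout library listed Ccl21c, whose entry there is in the knockout file alone, and the wild-type library listed 0.57 FPKM under Gm13304. Summed over the 6 copies, which holds whichever copy a read was given to, Ccl21 came to 7.90 FPKM (4.20 to 11.98) in the knockout and 3.77 FPKM (1.41 to 6.86) in the wild-type library. That is a log2 ratio of 0.90, under 2-fold, with bounds that overlapped. Their receptor Ccr7 stood at 0.45 FPKM in the knockout and 0.14 FPKM in the wild-type library.

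Ccl27b, a copy of the skin T cell attractant Ccl27a, was listed at 2.08 FPKM (1.10 to 3.62) in the knockout library and at 0 (upper bound 1.00) in the wild-type library. Its exons share 157 bases on the same strand with 4933409K07Rik, which had 443 FPKM in the knockout and 20.3 FPKM in the wild-type library. Reads of that gene over the shared bases could have been given to either. Ccl27a was listed at 0 in both libraries, and its receptor Ccr10 had 0.29 FPKM in the knockout and 0.36 FPKM in the wild-type library. Without Ccl21a, Ccl21c and Ccl27b, 7 of 24 compared chemokine genes were at least 2-fold higher in the knockout library, against 7.68% of all compared genes. The median log2 ratio of the 24 was 0.55, against 0.22 in all compared genes.

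Ackr1, the atypical receptor of venules and red cell precursors that binds many inflammatory chemokines, was listed at 0 FPKM in the knockout and 1.03 FPKM (0.52 to 1.68) in the wild-type library. Its RefSeq transcript was listed at 0 in both libraries. The wild-type value came from a single-exon model at chr1:173331886-173333020. In the knockout library a model of 1.11 FPKM at chr1:173331886-173367695 covered Ackr1 together with its neighbour Cadm3 and was counted for Cadm3. Averaged over the exon bases of Ackr1, the level was 1.11 FPKM in the knockout and 0.93 FPKM in the wild-type library, a log2 ratio of 0.13. Without Ackr1, Cxcr6 was the only compared gene of the family at least 2-fold lower.

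The other 35 genes stayed under 1 FPKM in both libraries and were not compared. Of these, 11 were listed at 0 in both, namely Ccl20, Ccl21b, Ccl25, Ccl26, Ccl27a, Cxcl3, Cxcl5, Cxcl15, Ccr6, Cxcr5 and Ackr4. A listed 0 can also be a failed estimate, so it does not show that a transcript was absent. The 24 others summed with them to 8.91 FPKM in the knockout and 5.53 FPKM in the wild-type library. Among the 24, 17 were higher in the knockout library, as were 66% of all compared genes. Shares over all genes under 1 FPKM were not computed, for direction or for bounds. The counts here are therefore not read as a trait of the family. Bounds were apart for 3 of them, all higher in the knockout library. Besides Ccl6 these were Ackr2, a scavenger of inflammatory CC ligands, at 0.73 FPKM in the knockout and 0.26 FPKM in the wild-type library, and Ccr8, a receptor of type 2 helper and regulatory T cells, at 0.52 FPKM in the knockout and 0.063 FPKM in the wild-type library. Others with a value in at least 1 library were Cxcl10, Cxcl9, Cxcl11, Cxcl13, Cxcl17, Ccl1, Ccl9, Ccl11, Ccl17, Ccl22, Ccl28, Ccr2, Ccr3, Ccr4, Ccr7, Ccr9, Ccr10, Ccr1l1, Xcr1 and Cxcr1. Ccl22 and Ccl17, both ligands of Ccr4, went opposite ways at these low levels, with Ccl22 at 0.41 FPKM in the knockout and 0.15 FPKM in the wild-type library and Ccl17 listed at 0 in the knockout and 0.19 FPKM in the wild-type library.

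Transcript length moved with the ratio. Most chemokine ligands have short transcripts, with a median of 806 nt for the longest transcript of the compared ligands, against 2236 nt for the compared receptors and 2750 nt for all compared genes. Across all compared genes, Spearman's rho between length and log2 ratio was -0.40, and across the 27 chemokine genes it was -0.62. Both are descriptions across genes, which share the same 2 libraries. Of the 13 chemokine genes under 1000 nt, 9 were at least 2-fold higher in the knockout library, with a median log2 ratio of 1.04, against 19% of all 1213 compared genes under 1000 nt, with a median of 0.54. All 13 were under 15 FPKM, and among the 524 genes both shorter than 1000 nt and under 15 FPKM the share was 28.2%. Of the 9, Ccl5, Ccl8, Ccl21a, Ccl21c and Ccl27b passed the filter through the knockout library alone. That choice itself pushed their ratios up. Of the 14 chemokine genes of 1000 nt or more, 1 was at least 2-fold higher, against 6.59% of such genes, and 2 were at least 2-fold lower, against 3.52%. Their median log2 ratio was 0.35, against 0.18.

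After the median of 20 length bins was removed from each ratio, the median of the 27 chemokine genes was 0.26, against 0 in all genes by construction, and 21 stayed above 0. At least 2-fold higher were then 2 of the 27, Ccl27b and Ccl21a, both without a wild-type value above 0, against 4.77% of all genes. At least 2-fold lower were 2, Cxcr6 and Ackr1, against 4.08% of all genes. Cxcl16 had 0.88, Ccl3 had 0.80 and Ccl19 had 0.72 after this step, while Ccl2, Cxcl2 and Cxcl14 lay below 0.

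**Figure D2:**
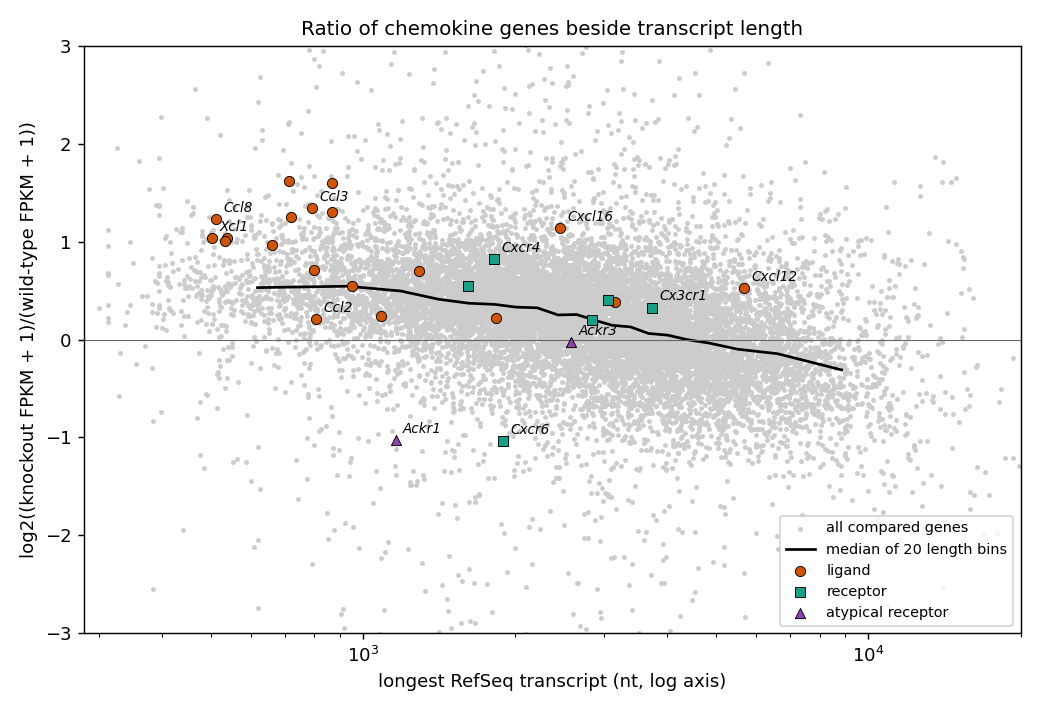
The log2 ratio, knockout over wild-type, of every compared gene against the length of its longest RefSeq transcript on a log axis, with ligands as orange circles, receptors as green squares, atypical receptors as purple triangles, other genes in grey and the median of 20 length bins as a black line; grey points beyond 3 in either direction are outside the axis. Most ligands crowd at the short end above the line, where the line itself is highest, but Ccl2, Cxcl2 and Cxcl14 lie below it. Cxcr6 and Ackr1 lie far below the line.

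**Figure D3:**
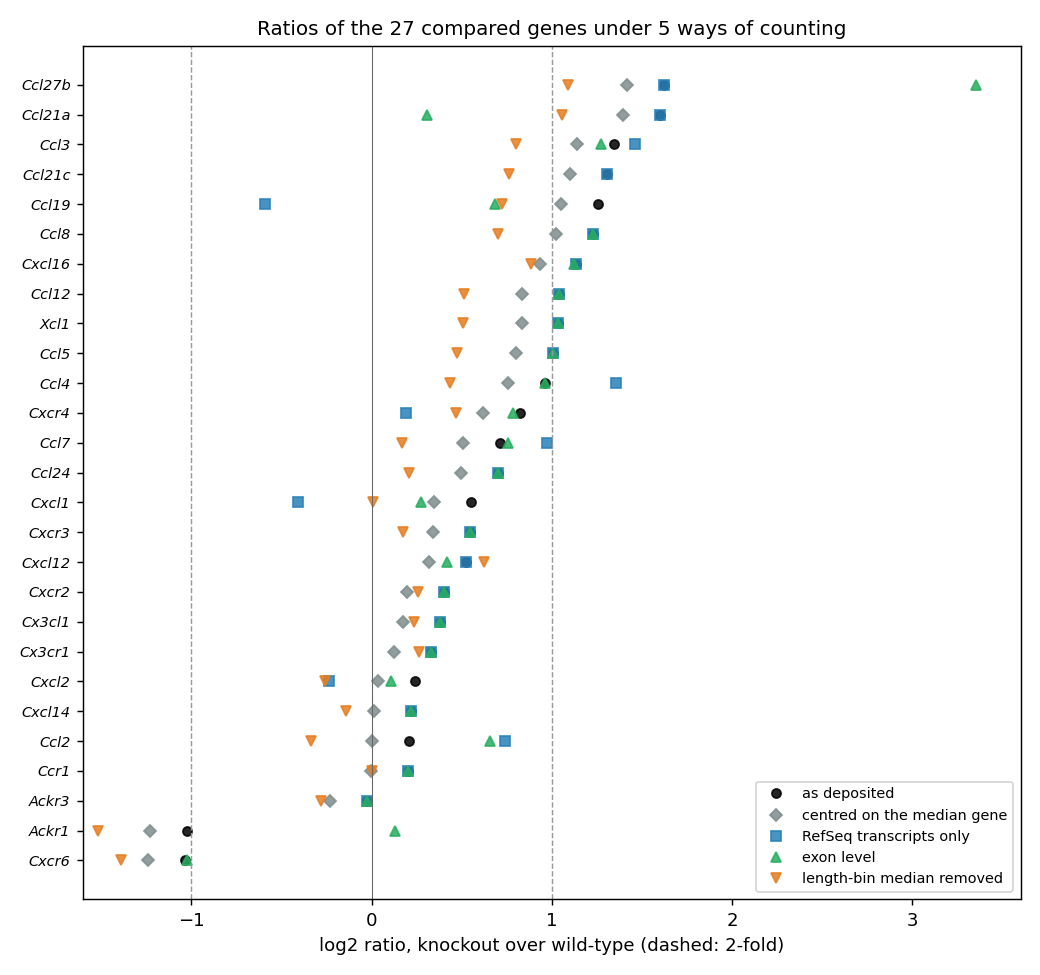
The log2 ratio of each of the 27 genes, 1 row per gene, as deposited and under 4 other ways of counting, with dashed lines at 2-fold. Ccl19, Cxcl1 and Cxcl2 lie below 0 with RefSeq transcripts only, Ackr1 lies above 0 at the exon level, and Ccl27b is far to the right at the exon level, where 4933409K07Rik covers some of its bases; ratios of genes listed at 0 in a library depend on the pseudocount of 1.

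Promoter sequence was searched for 2 motifs on both strands in the 250 bases before the start of each gene, an NF-kB site, written as GGG and, after 2 free bases, TTTCC, and the TATA box TATAAA. The NF-kB letters occurred in 6 of the 46 genes with an entry, or 13%, against 1.4% of all 27025 windows. They were found in Cxcl1, Cxcl2, Cxcl3, Ccl9, Ccl20 and Ccr3. Cxcl1 held GGGaaTTTCC at 71 to 62 bases before its start and a second match on the opposite strand, and Cxcl2 held GGGaaTTTCC at 97 to 88 bases before its start and GGGctTTTCC at 78 to 69, with lower case for the free positions. The TATA box letters occurred in 13 of the 46 genes, or 28.3%, against 13% of all windows, and no match of one motif shared bases with a match of the other. Of the 6 genes with the NF-kB letters, Cxcl1 and Cxcl2 were compared, and neither was at least 2-fold higher in the knockout library. Another 7 compared genes had no entry and were not searched, namely Ccl2, Ccl4, Ccl5, Ccl7, Ccl21c, Ccl24 and Cxcl16. Of these, Ccl5, Ccl21c and Cxcl16 were at least 2-fold higher. A match is a run of letters and not a site shown to be bound.

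The genes through which chemokine receptors signal were compared as a list of 52, of which 50 were compared. In it 4 were at least 2-fold higher in the knockout library and 1 was lower, against 7.68% and 3.5% of all compared genes. The median log2 ratio was 0.28, close to the 0.22 of all compared genes. Above 0 were 40 of the 50, against 66% of all compared genes. Elmo1, a partner of the Dock proteins that activate Rac, was at 26.6 FPKM in the knockout and 5.19 FPKM in the wild-type library, a log2 ratio of 2.16 that became 0.89 at the exon level and -0.09 with RefSeq transcripts alone. Rasgrp2 and Rhoa, at 1.42 and 1.04, likewise came to 0.33 and 0.56 at the exon level and to 0.22 and 0.16 with RefSeq transcripts alone. Rac2, a Rac protein of blood cells, was the higher one that kept its 2-fold gap, at 6.59 FPKM in the knockout and 2.45 FPKM in the wild-type library, with log2 ratios of 1.14, 1.18 at the exon level and 1.31 with RefSeq transcripts alone. Rock2, a kinase downstream of Rhoa, was the lower one, at 10.6 FPKM in the knockout and 27.7 FPKM in the wild-type library, a log2 ratio of -1.31, with -0.94 at the exon level and -0.28 with RefSeq transcripts alone.

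Pf4 and Ppbp are chemokines whose symbols do not follow the family pattern, and they were placed in a list of modifiers and related ligands. Pf4, a platelet and megakaryocyte chemokine also made by tissue macrophages, was at 175 FPKM in the knockout and 73.1 FPKM in the wild-type library, a log2 ratio of 1.25, which put it above Cxcl12 in level. Mif, a cytokine that binds Cxcr2 and Cxcr4, was at 402 FPKM in the knockout and 229 FPKM in the wild-type library, and Cd74, its other receptor, at 18.8 FPKM in the knockout and 6.79 FPKM in the wild-type library. This list holds Cxcl17 as well, and its 18 compared genes had a median log2 ratio of 0.52. Of these, 3 were at least 2-fold higher and none was lower, against 7.68% and 3.5% of all compared genes.

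Regulators and targets of inflammatory signalling had lower median ratios than the ligands. These medians were not adjusted for transcript length, and the compared ligands were short, at a median of 806 nt against 2750 nt in all compared genes. Over all compared genes, 7.68% were at least 2-fold higher and 3.5% at least 2-fold lower. Of 22 genes of the NF-kB pathway and inflammation, 17 were compared and none was 2-fold different, with a median log2 ratio of 0.45. Nfkbia, the inhibitor that NF-kB itself induces, came nearest at 22.3 FPKM in the knockout and 10.8 FPKM in the wild-type library. Of 22 interferon response genes, 19 were compared and 3 were at least 2-fold higher, with a median of 0.48. Among them were Tap1, a peptide transporter for antigen presentation, at 7.83 FPKM in the knockout and 2.77 FPKM in the wild-type library, and the proteasome subunit Psmb8. The log2 ratio of Tap1 was 1.23, but 0.58 at the exon level and -0.26 with RefSeq transcripts alone.

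Markers of cells that make or sense chemokines were mostly higher in the knockout library, as were 66% of all compared genes. Over all compared genes, 7.68% were at least 2-fold higher and 3.5% at least 2-fold lower. Macrophage markers were compared for 15 of 15 genes, of which 7 were at least 2-fold higher in the knockout library and 1 was lower, and the list summed to 1201 FPKM in the knockout and 612 FPKM in the wild-type library. C1qb, a complement subunit of resident macrophages, was at 162 FPKM in the knockout and 66.8 FPKM in the wild-type library. Within the list Cd68 was listed at 0 in the knockout and 24.6 FPKM in the wild-type library, while Adgre1, which encodes F4/80, was at 17.03 FPKM in the knockout and 13.6 FPKM in the wild-type library. Mast cell markers were compared for 4 of 6 genes, all 4 at least 2-fold higher, and summed to 32.8 FPKM in the knockout and 5.97 FPKM in the wild-type library, with Ms4a2 listed at 0 in both. Lymphocyte markers summed to 21.6 FPKM in the knockout and 10.8 FPKM in the wild-type library, with 2 of 6 compared genes at least 2-fold higher and Ms4a1 listed at 0 in the knockout library. Markers of antigen presentation through MHC class II summed to 40.0 FPKM in the knockout and 16.1 FPKM in the wild-type library, with 2 of 4 compared genes at least 2-fold higher. Of the 4 markers of all leukocytes, which summed to 94.2 FPKM in the knockout and 50.6 FPKM in the wild-type library, none was 2-fold different. Laptm5, Coro1a and Cd53 were higher in the knockout library with bounds apart, at log2 ratios of 0.91, 0.97 and 0.47, and Ptprc, which encodes CD45, was at 1.98 FPKM in the knockout and 2.29 FPKM in the wild-type library with bounds that overlapped.

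Markers of other cells of the testis differed as well, and their counts stand beside the 7.68% higher and 3.5% lower of all compared genes. Sertoli cell markers summed to 1010 FPKM in the knockout and 427 FPKM in the wild-type library, with 6 of 12 at least 2-fold higher and a median log2 ratio of 1.01. Endothelial markers had a median of 0.69 and 3 of 10 at least 2-fold higher, Leydig cell markers 0.93 and 2 of 6, lymphatic endothelial markers 0.31 and 1 of 3, and peritubular and stromal markers 0.30 and none of 11. Neutrophil markers were low, with 1 of 7 compared and sums of 3.73 FPKM in the knockout and 1.504 FPKM in the wild-type library. Germ cell markers had a median log2 ratio of -0.22, with 1 of 8 at least 2-fold lower and sums of 818 FPKM in the knockout and 962 FPKM in the wild-type library, and markers of undifferentiated spermatogonia a median of 0.41, with 1 of 10 at least 2-fold higher. The part of any of these cells in the chemokine values was not tested, and in RNA from a mixture, fewer cells of a type and less RNA per cell cannot be told apart.

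**Figure D4:**
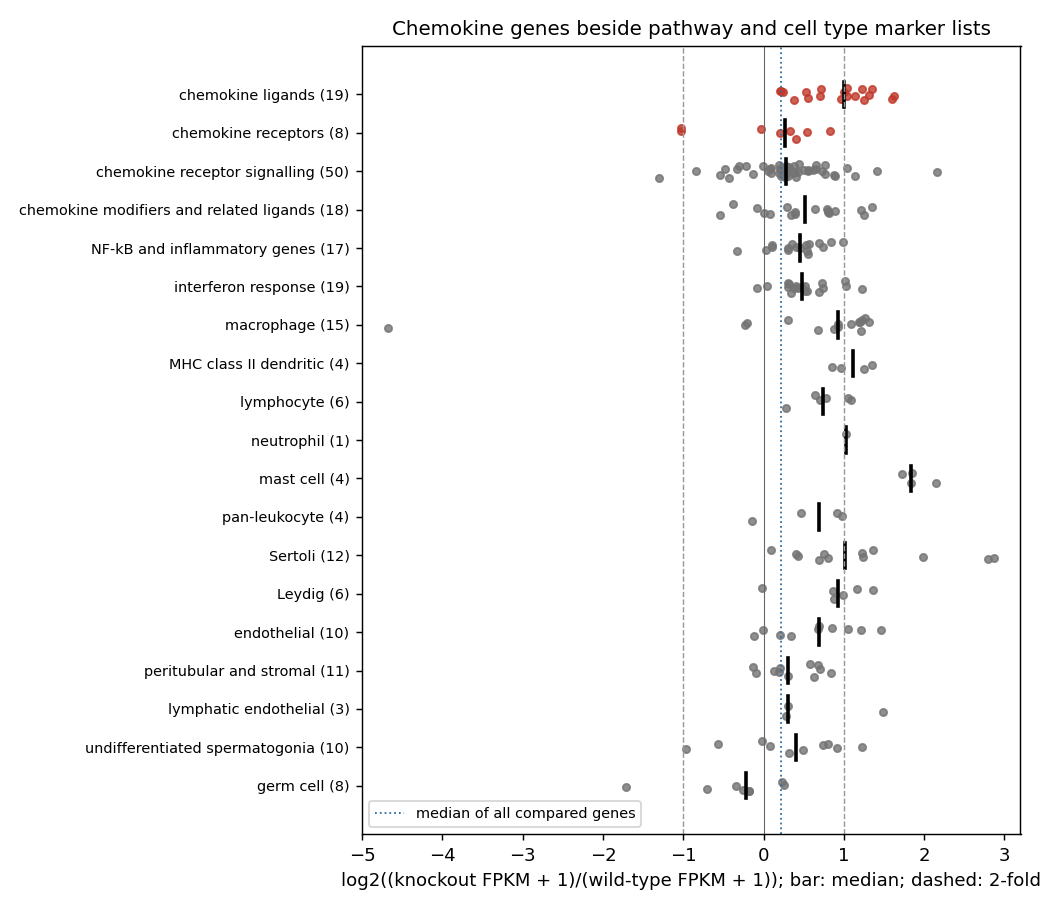
The log2 ratio, knockout over wild-type, of each compared gene in the chemokine ligands and receptors (red) and in lists of pathway genes and cell type markers (grey), with the number compared in brackets, a black bar at the median, dashed lines at 2-fold and a dotted line at the median of all compared genes. Ligands, with a median of 1.00, sit beside the macrophage, Leydig and Sertoli lists, at 0.93, 0.93 and 1.01, and the neutrophil list of 1 gene, at 1.03. The MHC class II and mast cell lists are higher, at 1.11 and 1.84. Receptors, at 0.26, sit near the dotted line. These medians are not adjusted for transcript length, and some genes passed the filter through 1 library alone.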

How the data were processed

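Poly(A) RNA of spermatogonial progenitor cells was sequenced as paired-end reads of 100 nt, with no strand-marking step named, per the labels' protocols. The submitters' processing notes name CASAVA 1.9, TopHat2 2.0.8 and Cufflinks 2.1.1 with mm10 as the build, but no settings. Each deposited file lists RefSeq transcripts and models assembled from that library, each with an FPKM and its bounds, used as deposited by the authors. Coverage served only for relative depth and 1 alternative. Counts are not in the files, so depth is unknown and no interval from counts is given.

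With Python 3.11.15, numpy 2.4.6 and pandas 2.3.3, 30079 RefSeq identifiers were named by accession or exon overlap. An assembled model, if 300 nt or longer, was added to the gene sharing most of its exon bases on the same strand, or, if it had no strand, only where that share was at least 0.5, and FPKM and bounds were summed per gene. Compared genes had 1 FPKM or more in either library and a transcript of at least 300 nt, and ratios were taken on a log2 scale with a pseudocount of 1 FPKM. For the exon level, the FPKM of every transcript and model over a base, on either strand, was summed and then averaged across the RefSeq exon bases of the gene. Grouping followed the genotype in the labels. No test was made with 1 library per genotype. The computation was tested on simulated data.

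The members of the family are named, except 1 that is not reported here. Other genes were named only as Dnmt3l, as neighbours or copies a value turns on, or as the list members with the largest ratios or highest levels. The family and the lists were chosen with earlier results of these data known. Alternatives were other pseudocounts, filters, scalings, transcript sets and a requirement of bounds apart. Leaving out near-identical copies, leaving out Ackr1 and removing the length trend were chosen after seeing the data.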

Additional observations from a re-analysis of the deposited data

How the results depend on the processing

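The counts of chemokine genes at least 2-fold higher and lower in the knockout library, 10 and 2 of 27, and the median log2 ratio of 0.70 were recomputed one choice at a time. The counts shifted most with a pseudocount of 5 FPKM, with 0 higher, 0 lower and a median of 0.35, against 3.01% and 1.17% of all genes. They fell because most of the chemokine genes are below 10 FPKM in the higher library. A pseudocount of 0.1 gave 12 higher and 2 lower, against 11% and 4.94%, and a median of 0.94. Keeping all 51 genes above 0 gave a median of 0.29. A filter of 5 FPKM left 4 higher and 0 lower of 10, against 7.15% and 2.84% of all genes. Centring on the median gene gave 6 higher, against 4.89% of all genes, and a median of 0.50. Upper-quartile scaling gave 6, against 5.16%, and a median of 0.53. Leaving the 50 most abundant genes out of the scaling total gave 5, against 4.44%, and a median of 0.45. RefSeq transcripts only gave 10 higher and 0 lower of 25, against 11.7% and 11.3% of all genes. Genes above 0 in both libraries gave 7 higher and 0 lower of 22, against 5.45% and 2.26%. In both settings Cxcr6 and Ackr1 were no longer among the compared genes. The exon level gave 7 higher and 1 lower of 26, against 5.19% and 3.08%, and a median of 0.60. Bounds apart gave 6 higher, but the share of all genes under that requirement was not computed. Without the near-identical copies the median was 0.55. Without Ackr1 there was 1 lower, against 3.5% of all genes. With the length trend removed, 2 were higher, against 4.77% of all genes, and the median was 0.26. The coverage attribute gave 8 higher and 2 lower, against 7.56% and 3.48% of all genes. Dropping the length limit on models gave 10 and 2, against 7.71% and 3.5%. Single genes that turned round were Ccl19, at -0.59 with RefSeq transcripts only, and Ackr1, at 0.13 at the exon level. Each gene was recomputed under the 10 to 13 settings in which it had a value, and its sign was the same in all of them for 20 of the 27 genes and changed at least once for 7, which besides these were Ccl2, Ccr1, Cxcl1, Cxcl2 and Cxcl14. No paired analysis was possible because there is 1 library per genotype, and for the same reason no replicate could be left out. Genes near 1 FPKM are limited by depth, which is unknown.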
